A study of Saccharomyces cerevisiae with 6 samples.

Results

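Aminoacyl-tRNA synthetases are the enzymes that load each amino acid onto its tRNA. The group was taken as 34 listed budding yeast genes, 21 for cytosolic and 13 for mitochondrial enzymes, picked by their systematic names out of a table of 7554 transcripts. The table held 33 of the 34. GRS1 (YBR121C), the glycine enzyme, was not analysed here. RNA was compared between strain yMH007, which contains dChr, an artificial chromosome made to store data, and strain yMH104, the control with an empty plasmid, with 3 libraries each. Cells of both strains grew at 30 °C in synthetic medium without uracil. Overnight cultures of 4 ml were diluted to 50 ml, starting at an OD600 of 0.2 and ending at 1.0 to 1.2, and total RNA was column-purified. The sources used here do not give the genotype of either strain beyond this, whether a strain is a single clone, or whether its 3 libraries came from separate cultures, so p-values measure the spread between these libraries, which may be technical.

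Each synthetase recognises an amino acid and the tRNAs that carry it, joins them at the cost of ATP, and many remove wrong amino acids again. The enzymes fall into class I and class II, which have unrelated catalytic folds. Yeast translates both in the cytosol and in mitochondria, and nuclear genes encode the enzymes for both places. Some amino acids have separate cytosolic and mitochondrial genes, while ALA1, GRS1, HTS1, VAS1 and CRS1 each supply both places from a single gene. When charging falls behind, uncharged tRNA activates the kinase Gcn2, which raises translation of the transcription factor Gcn4, an activator of amino acid biosynthesis genes and of some synthetase genes.

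Values are TPM, a length-normalised share of each library, so levels can be set side by side between genes, but a change in RNA per cell cannot be told apart from a change in share. The sequencing depth behind these shares is unknown. Of 5938 tested transcripts, limma called 249 higher (4.19%) and 544 lower (9.16%) in the dChr strain, 13.4% in all, at a Benjamini-Hochberg adjusted p under 0.05. The split was 507 higher and 638 lower under median-ratio scaling, 555 and 561 under quantile normalization, and 249 and 928 when open reading frames of the nuclear genome were rescaled by themselves. Open reading frames took 44.8% to 49.7% of TPM in the dChr libraries and 42.0% to 46.6% in the control libraries. Control library 2 was the highest control for 63.4% of tested transcripts. It was the highest control for 18 of the 20 measured cytosolic synthetases and 9 of the 13 mitochondrial ones.

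Cytosolic synthetase transcripts were abundant in both strains and mitochondrial ones were scarce, with no overlap in any library. The means over 6 libraries ran from 35.3 TPM (GLN4, glutamine) to 296 TPM (ILS1, isoleucine) for the 20 cytosolic genes, with a median of 153 TPM. They ran from 1.02 TPM (DIA4, serine) to 20.4 TPM (MSK1, lysine) for the 13 mitochondrial genes, with a median of 7.06 TPM. The lowest single value of a cytosolic gene, 27.1 TPM for GLN4, lay above the highest single value of a mitochondrial gene, 24.9 TPM for MSK1. Among all tested transcripts ranked by mean TPM, cytosolic members stood between the 75.6th and 94.2th percentile and mitochondrial members between the 0.185th and 66.8th. Together, the cytosolic genes summed to 2669, 2989 and 2870.3 TPM in the dChr libraries, against 2775, 3313 and 3081 TPM in the control libraries. The mitochondrial genes summed to 103.2, 110.0 and 100.7 TPM in the dChr libraries, against 100.2, 122.5 and 97.2 TPM in the control libraries. Both sums overlapped between the strains.

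**Figure D1:**
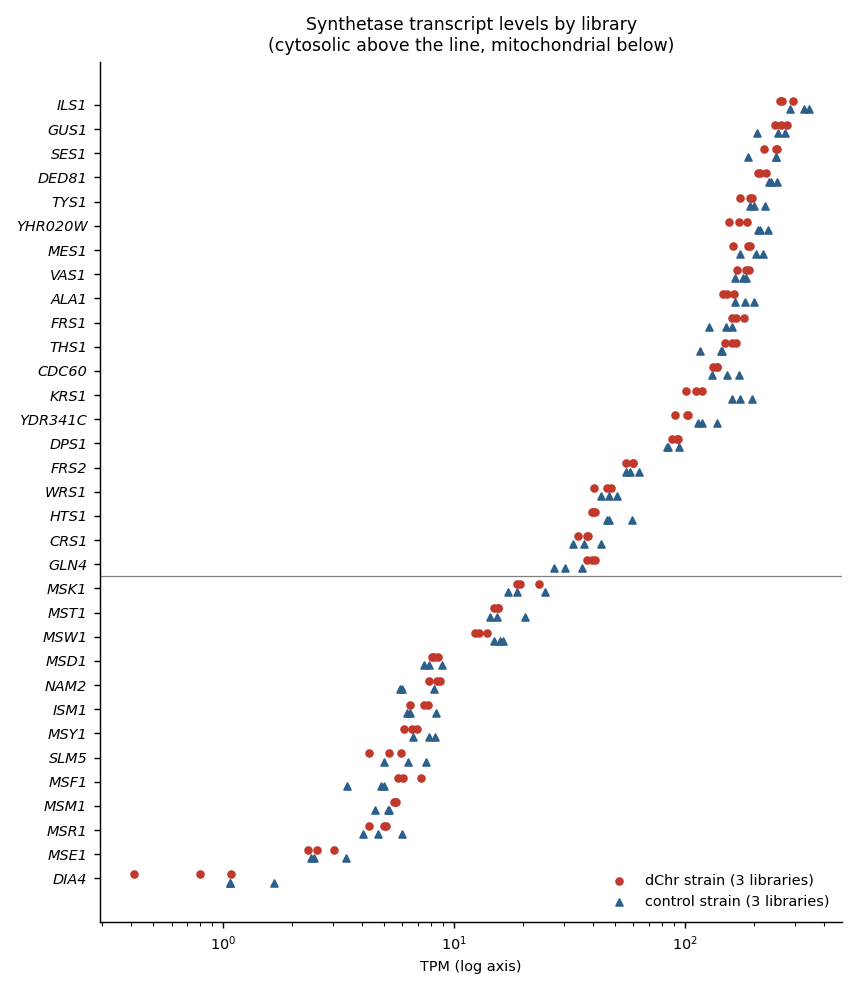
TPM (log axis) of each measured synthetase gene in the 3 dChr libraries (circles, upper row of each gene) and the 3 control libraries (triangles, lower row), ordered by mean level within cytosolic (above the line) and mitochondrial (below) enzymes. Every cytosolic value lies above every mitochondrial value, from 27.1 TPM upward against 24.9 TPM downward.

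Of the 20 cytosolic synthetases, 1 fell and 0 rose in the dChr strain, against a background of 9.16% of tested transcripts called lower and 4.19% called higher. The gene that fell was KRS1, the cytosolic lysine enzyme, on chromosome IV from 525440 to 527215 in the R64 assembly. KRS1 was at 101, 119 and 112 TPM in the dChr libraries, against 159.9, 196 and 173 TPM in the control libraries. Every dChr library lay below every control library. KRS1 averaged 111 ± 8.74 TPM in the dChr strain and 177 ± 18.5 TPM in the control (SD, n = 3 each), a log2 fold change of -0.67 ± 0.11 (SE; 95% interval -0.93 to -0.41; limma adjusted p = 0.0106). This is 0.629 times the control level, on the log2(TPM + 1) scale. KRS1 was called in all 15 alternative settings run, with a log2 fold change of -0.75 to -0.59 and limma adjusted p of 0.000349 to 0.0461. The last value came without dChr library 1.

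The other 19 cytosolic genes did not pass the threshold in either direction. Their 95% intervals lay between -0.59 and 0.62 on the log2 scale, and the median interval of the cytosolic genes reached 0.26 to either side, which is 1.19-fold. At an unadjusted p under 0.05, 5 cytosolic genes were lower and 1 higher, where 18.0% and 9.85% of all tested transcripts were (27.8% in all). YHR020W, the cytosolic proline enzyme, was at 155, 186 and 171 TPM in the dChr libraries, against 208, 229.6 and 211 TPM in the control libraries (log2 fold change -0.34 ± 0.10 SE, limma adjusted p = 0.0675). Its strains did not overlap, and it passed the threshold under median-ratio scaling, quantile normalization and rescaled open reading frames, with limma adjusted p = 0.0331, 0.0432 and 0.00373. YDR341C, the cytosolic arginine enzyme, was at 90.6, 102 and 103 TPM in the dChr libraries, against 114, 138 and 119 TPM in the control libraries (95% interval of the log2 fold change -0.57 to -0.07).

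HTS1, the histidine enzyme of both compartments, was at 40.1, 39.7 and 40.8 TPM in the dChr libraries, against 46.0, 59.2 and 47.2 TPM in the control libraries. The SD was 1.39% of the mean among dChr libraries and 14.3% of it among control libraries, where library 2 stood above the other two. ALA1, the alanine enzyme of both compartments, was at 146, 163 and 152 TPM in the dChr libraries, against 165, 199.8 and 182 TPM in the control libraries, which lie just apart. GLN4, the glutamine enzyme, went the other way, with 37.8, 40.9 and 39.8 TPM in the dChr libraries, against 27.1, 36.0 and 30.4 TPM in the control libraries. GLN4 passed the threshold as higher under median-ratio scaling, under quantile normalization and without control library 2, with limma adjusted p between 0.0137 and 0.0409 in these fits.

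**Figure D2:**
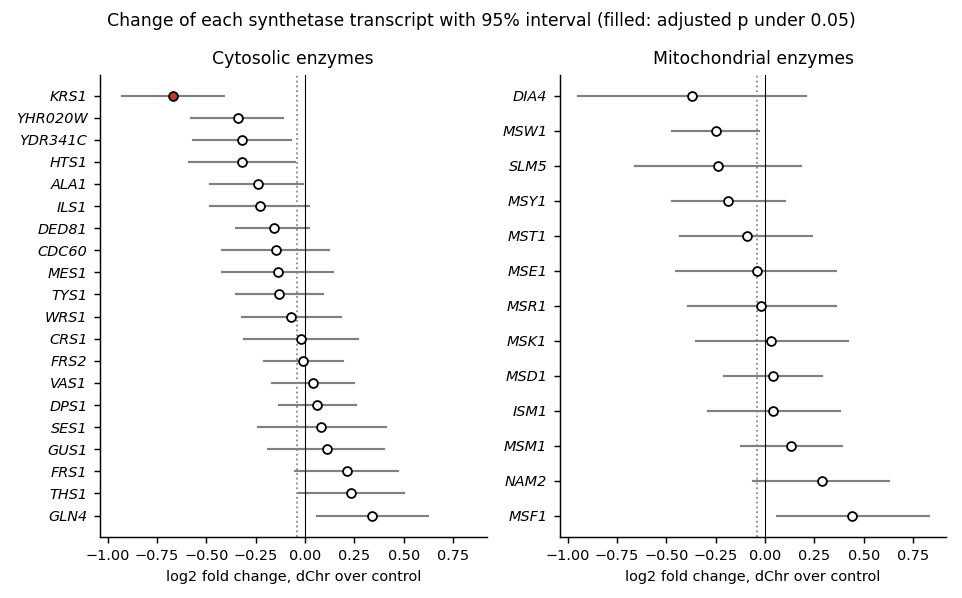
Log2 fold change of each synthetase transcript, dChr over control, with its 95% interval from limma, for 20 cytosolic genes (left) and 13 mitochondrial genes (right); the solid line marks no change and the dotted line the median of all tested transcripts (-0.04). KRS1, at -0.67, carries the only filled point, for an adjusted p under 0.05.

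As a whole, 13 of the 20 cytosolic genes had a log2 fold change below 0, against 55.6% of all tested transcripts. The median was -0.10 for the cytosolic genes and -0.04 for all tested transcripts, and no test was made of this difference. The count below 0 was 11 under median-ratio scaling, 10 under quantile normalization and 15 with rescaled open reading frames, where the background was 49.2%, 44.3% and 63.9%. It was 16 without control library 1, where the background was 59.0%. Without dChr library 1 or control library 2 it was 11, where the background was 53.7% and 48.6%. It stayed at 13 when any other library was left out. Strains did not overlap for 6 cytosolic genes that were lower (KRS1, YHR020W, YDR341C, HTS1, ALA1 and DED81, the asparagine enzyme) and for 2 that were higher (GLN4 and THS1, the threonine enzyme). Over all tested transcripts 21.2% did not overlap and were lower, 12.9% did not overlap and were higher, and the total was 34.1%. THS1 was at 149, 161 and 167 TPM in the dChr libraries, against 117, 145 and 144 TPM in the control libraries (95% interval of the log2 fold change -0.03 to 0.50). Among cytosolic genes, class I and class II enzymes had medians of -0.10 and -0.09, over 10 genes each. As a share of the TPM of nuclear open reading frames, the cytosolic sum was 0.601%, 0.620% and 0.627% in the dChr libraries, against 0.666%, 0.725% and 0.706% in the control libraries, so the shares did not overlap although the sums did. The mitochondrial share was 0.0233%, 0.0228% and 0.022% in the dChr libraries, against 0.024%, 0.0268% and 0.0223% in the control libraries, which overlap. When the fit was run on the open reading frames alone, 6 cytosolic genes were called lower: KRS1, YHR020W, YDR341C, HTS1, ALA1 and ILS1. In that fit 16.5% of the 5621 tested transcripts were called lower, and the median of all of them was -0.115.

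The remaining cytosolic enzymes had log2 fold changes between -0.23 for ILS1 and 0.21 for FRS1, and none was called. ILS1, the most abundant, was at 258, 295 and 264 TPM in the dChr libraries, against 287, 344 and 327 TPM in the control libraries. MES1 and GUS1, the methionine and glutamate enzymes, bind the cofactor Arc1 in a complex in the yeast cytosol. MES1 averaged 180.3 ± 15.9 TPM in the dChr strain and 199 ± 22.4 TPM in the control (SD, n = 3 each). GUS1 averaged 261 ± 14.9 TPM in the dChr strain and 244 ± 34.2 TPM in the control, and ARC1 averaged 126 ± 5.68 TPM in the dChr strain and 109 ± 10.8 TPM in the control. CDC60 (leucine), TYS1 (tyrosine), WRS1 (tryptophan), CRS1 (cysteine), DPS1 (aspartate), VAS1 (valine), SES1 (serine) and both phenylalanine subunit genes had log2 fold changes from -0.15 for CDC60 to 0.21 for FRS1.

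**Figure D3:**
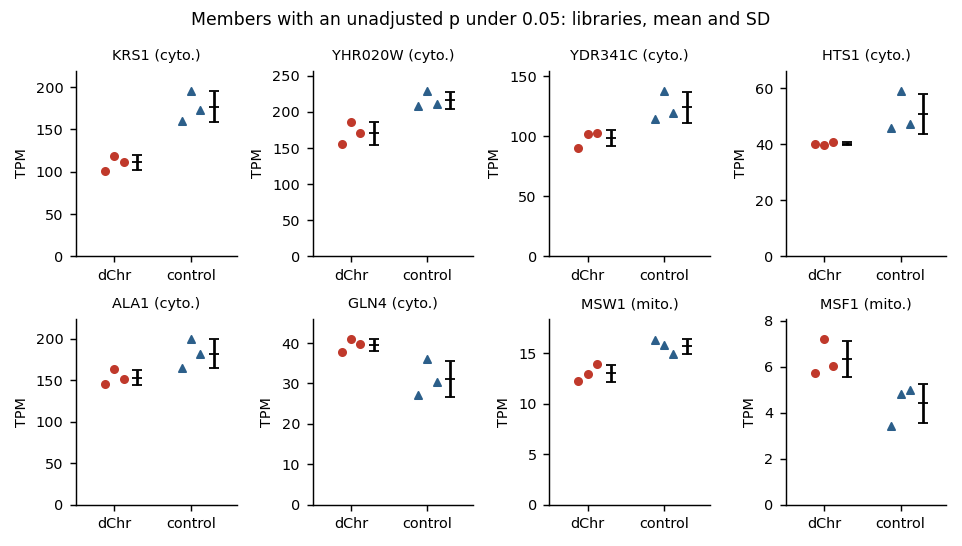
TPM (axis from 0) of the 8 members with an unadjusted p under 0.05, with the 3 dChr libraries (circles) left of the 3 control libraries (triangles) and the mean ± SD beside each. KRS1 shows the widest gap of the cytosolic genes, with 101 to 119 TPM in the dChr strain against 159.9 to 196 TPM in the control.

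The phenylalanine enzyme has an alpha subunit, encoded by FRS2, and a beta subunit, encoded by FRS1, in equal number. FRS1 averaged 169 ± 9.96 TPM in the dChr strain and 147 ± 16.7 TPM in the control, while FRS2 averaged 58.5 ± 2.29 TPM in the dChr strain and 59.0 ± 3.78 TPM in the control. The ratio of FRS1 to FRS2 was 2.88, 3.02 and 2.78 in the dChr libraries, against 2.30, 2.54 and 2.61 in the control libraries. The transcripts of the subunits were thus unequal in all 6 libraries, and the ratio was higher in each dChr library than in any control library. This ratio was chosen after its values were seen, and no test is given for it.

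None of the 13 mitochondrial synthetases was called in either direction by limma, where 9.16% of tested transcripts were called lower and 4.19% higher. At an unadjusted p under 0.05, 1 was lower and 1 higher, where 18.0% and 9.85% of tested transcripts were. MSW1, the tryptophan enzyme, was at 12.3, 12.9 and 13.9 TPM in the dChr libraries, against 16.3, 15.8 and 14.9 TPM in the control libraries (log2 fold change -0.25 ± 0.09 SE, limma adjusted p = 0.137). MSF1, the phenylalanine enzyme, was at 5.72, 7.21 and 6.04 TPM in the dChr libraries, against 3.44, 4.82 and 4.97 TPM in the control libraries (log2 fold change 0.44 ± 0.16 SE, limma adjusted p = 0.130). Strains did not overlap for MSW1, MSF1 and MSM1, the methionine enzyme, which was at 5.65, 5.59 and 5.53 TPM in the dChr libraries, against 5.26, 5.20 and 4.58 TPM in the control libraries. These are 1 lower and 2 higher of 13, where 21.2% and 12.9% of tested transcripts were lower and higher without overlap. Under quantile normalization MSF1 and NAM2 were called higher, as were 555 of all 5938 tested transcripts. NAM2, the leucine enzyme, which also acts in the splicing of mitochondrial introns, was at 8.45, 8.70 and 7.81 TPM in the dChr libraries, against 5.99, 8.24 and 5.87 TPM in the control libraries.

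The median log2 fold change of the mitochondrial genes was -0.02, against -0.04 for all tested transcripts, and its sign changed with the setting. It was 0.064 under median-ratio scaling, 0.101 under quantile normalization and 0.107 without control library 2, where the median of all tested transcripts was 0.010, 0.045 and 0.014. Under median-ratio scaling and without control library 2 it covers 12 genes, as DIA4, with the lowest log2 fold change (-0.37), fell below the filter. It was -0.092 with rescaled open reading frames, where that of all tested transcripts was -0.115, and -0.092 over the 3 mitochondrial genes with a mean of at least 10 TPM, where it was -0.016. Their 95% intervals lay between -0.95 and 0.83, wider than for the cytosolic genes. DIA4, with the widest interval, was at 0.801, 1.09 and 0.412 TPM in the dChr libraries, against 1.08, 1.66 and 1.07 TPM in the control libraries, at the edge of the 1 TPM filter. The log2(TPM + 1) scale understates changes at such levels. MSK1, MST1 (threonine), MSD1 (aspartate), ISM1 (isoleucine), MSY1 (tyrosine), SLM5 (asparagine), MSR1 (arginine) and MSE1 (glutamate) had log2 fold changes from -0.24 for SLM5 to 0.04 for ISM1 and MSD1.

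Cytosolic and mitochondrial enzymes were next compared within each amino acid, for the 13 amino acids with a gene for each place among the listed members. The ratio of cytosolic to mitochondrial TPM ran from 2.66 for tryptophan in control library 1 to 606 for serine in dChr library 3, where DIA4 was lowest. The ratios that follow are log2 values with 1 added to each TPM. For KRS1 to MSK1 the ratio was 2.32, 2.29 and 2.51 in the dChr libraries, against 3.02, 2.93 and 3.26 in the control libraries. MSK1 itself was at 19.4, 23.5 and 18.8 TPM in the dChr libraries, against 18.8, 24.9 and 17.2 TPM in the control libraries, which overlap. The ratio was lower in each dChr library than in any control library for lysine, phenylalanine (FRS2 to MSF1), leucine (CDC60 to NAM2), arginine (YDR341C to MSR1) and isoleucine (ILS1 to ISM1). The differences in mean log2 ratio were -0.70, -0.46, -0.44, -0.30 and -0.27 in this order. For arginine the plain TPM ratios overlapped, with 23.9 in dChr library 3 against 23.1 in control library 2. With a pseudocount of 0.1 in place of 1, 4 pairs did not overlap. No amino acid showed the reverse without overlap. The ratio was lower for 6 of 13 in all, and the median difference over the 13 pairs was 0.02. How often ratios of other gene pairs do not overlap was not computed. For single tested transcripts, 21.2% were lower without overlap and 12.9% higher, 34.1% in all. In exact permutation tests, two-sided, the 5 pairs without overlap gave p = 0.1, the smallest possible for 3 against 3. After Benjamini-Hochberg adjustment over the 13 pairs this was 0.26, so no pair could pass the threshold. Pairs without overlap numbered 8 without dChr library 1 and 8 without control library 3. With fewer libraries the strains separate more easily, so these counts cannot be set against the 5 from all libraries. In the leucine pair, CDC60 was at 132, 138 and 138 TPM in the dChr libraries, against 131, 172 and 152 TPM in the control libraries.

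**Figure D4:**
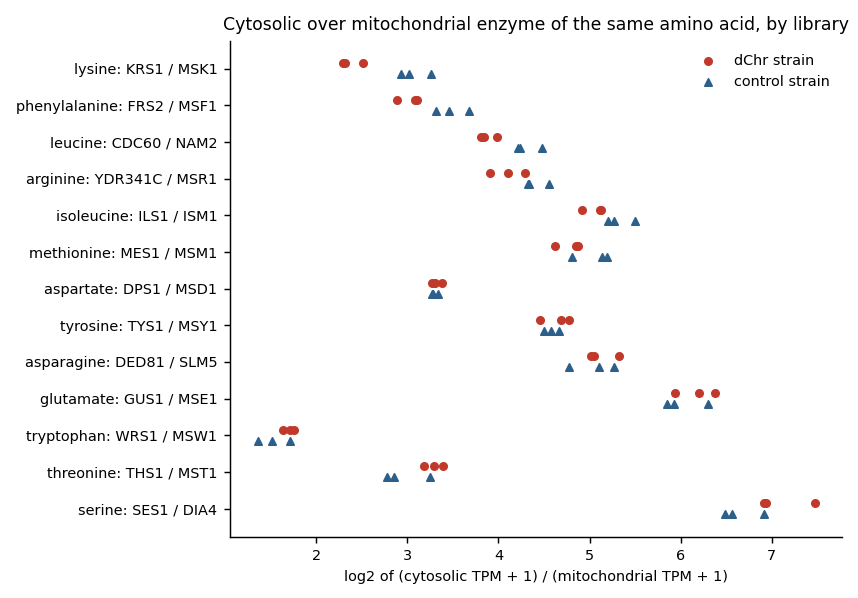
Log2 ratio of cytosolic to mitochondrial enzyme, both as TPM + 1, for 13 amino acids in the 3 dChr libraries (circles, upper row) and the 3 control libraries (triangles, lower row), ordered by the difference between strains. The lysine pair at the top shows the widest gap, with 2.29 to 2.51 in the dChr libraries against 2.93 to 3.26 in the control libraries.

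The upstream sequence of the genes played no part in the choice of members. The 300 bases before each start codon were searched on both strands for TGACTC, the core of the motif that Gcn4 is known to bind. It was present in 9 of 21 cytosolic genes (42.9%) and 1 of 13 mitochondrial genes (7.69%), against 466 of 6007 nuclear coding genes (7.76%). The longer form TGACTCA was present in 3 of the 34 members, all cytosolic, against 2.61% of nuclear coding genes. A match is a description of letters in this window and not a measured binding site. The stretches below show the match in 9 of these 10 genes as read along the gene, to let the flanks be compared; capitals mark TGACTC or its reverse complement GAGTCA, and sequences are from RefSeq, R64 assembly.
ILS1: tcgaaacaatgaTGACTCttaagcatgaaa
THS1: ttactgtttaaaTGACTCttaccttgtgat
ALA1: gattaaggaactTGACTCtttctttcaaga
DED81: caagacattcagTGACTCaagcatcgctta
YHR020W: taagcgatgcttGAGTCActgaatgtcttg
YDR341C: aaagtgtctaatGAGTCAgttatttctttc
VAS1: atttttttagaaGAGTCAcccatacagcct
CRS1: tttcatcgcgaaGAGTCAaaagacattatc
MSW1: ctatgcacatcaGAGTCAgattccttaaat

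DED81 and YHR020W are neighbours on chromosome VIII that are read away from each other, and 437 bases separate their coding parts. The match upstream of DED81 and that of YHR020W are the same letters, at chrVIII:143814-143819, read on opposite strands, so these are not separate instances. The 30-base stretches are, on the plus strand, chrIX:212283-212312 for THS1, chrVIII:143802-143831 for YHR020W, chrVII:672076-672105 for VAS1, chrXIV:182777-182806 for CRS1 and chrIV:1003732-1003761 for MSW1. On the minus strand they are chrII:84346-84375 for ILS1, chrXV:949139-949168 for ALA1, chrVIII:143802-143831 for DED81 and chrIV:1153809-1153838 for YDR341C. In ILS1 the match lies 102 bases before the start codon (chrII:84358-84363) and in ALA1 47 bases before (chrXV:949151-949156). The longer form TGACTCA is met by DED81, YHR020W and YDR341C.

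TGACTC was present in 7 of the 13 cytosolic genes with a log2 fold change below 0 and in 2 of the 7 above 0. Of the 6 cytosolic genes that were lower without overlap, 5 had TGACTC, among them DED81 and YHR020W with their shared site, and HTS1 did not. The median log2 fold change was -0.23 for the 9 measured cytosolic genes with it and -0.01 for the 11 without it, and no test was made between these sets. THS1 and VAS1 had the match and log2 fold changes of 0.23 and 0.04, so the match did not go with a lower level in every member. Among the measured cytosolic genes, 1 of the 9 with TGACTC was called lower (11.1%) and 0 of the 11 without it. Over all tested nuclear coding genes, 108 of 411 with TGACTC were called lower (26.3%) and 10 higher. Of the 4675 without it, 381 were called lower (8.15%) and 208 higher. The median log2 fold change of these 2 genome-wide sets was -0.19 and -0.03. In them, 176 of 411 and 932 of 4675 were lower without overlap, against 5 of 9 and 1 of 11 cytosolic genes.

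**Figure D5:**
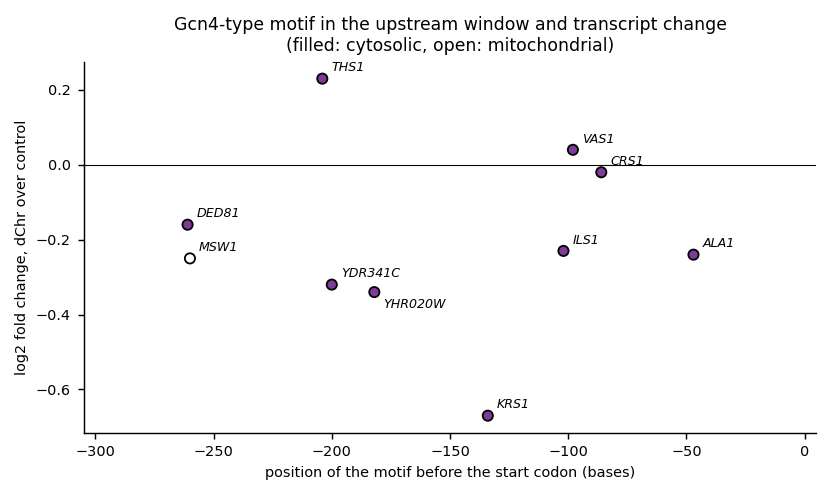
Position of the Gcn4-type motif before the start codon (bases, x axis) and log2 fold change, dChr over control (y axis), for the 9 cytosolic members (filled) and the mitochondrial MSW1 (open) that have it within 300 bases. KRS1 is lowest at -0.67, and THS1 and VAS1 lie above 0.

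Genes that act around the synthetases were described from a list of 24, of which 23 were in the table and 22 were tested; 2 fell and 0 rose. The 2 that fell are 9.09% of those tested, against 9.16% of all tested transcripts called lower and 4.19% called higher. Of the 22, 16 had a log2 fold change above 0, and the median was 0.06. Thus 27.3% lay below 0, against 55.6% of all tested transcripts. Strains did not overlap for 6 that were higher and 3 that were lower, where 12.9% and 21.2% of tested transcripts were. GCN4 was at 438, 495 and 428 TPM in the dChr libraries, against 651, 665 and 582 TPM in the control libraries. Each dChr library lay below each control library, and the log2 fold change was -0.48 ± 0.10 (SE, limma adjusted p = 0.0250). Gcn4 is controlled mainly at translation, which was not measured. The call was lost without dChr library 1 or 3 or control library 1 or 2, with limma adjusted p = 0.101, 0.0980, 0.0647 and 0.0630. TRZ1, the nuclease that trims tRNA 3′ ends, was at 4.52, 5.93 and 6.09 TPM in the dChr libraries, against 8.18, 9.85 and 8.75 TPM in the control libraries (log2 fold change -0.61 ± 0.14 SE, limma adjusted p = 0.0344). Leaving out each of the 6 libraries in turn ended its call every time (limma adjusted p from 0.0614 to 0.108), as did testing with no filter on low values (0.0532).

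GCN2, the kinase that senses uncharged tRNA, averaged 7.53 ± 0.646 TPM in the dChr strain and 8.27 ± 0.800 TPM in the control (SD, n = 3 each), and GCN1, which Gcn2 needs for activation, averaged 171 ± 14.9 TPM in the dChr strain and 139 ± 16.4 TPM in the control. Neither was called, and GCN1 was called higher under median-ratio scaling and quantile normalization. LOS1, the tRNA exportin, averaged 14.2 ± 1.83 TPM in the dChr strain and 21.3 ± 3.28 TPM in the control, without overlap (limma adjusted p = 0.0595). It passed the threshold in 6 of 15 alternative settings, always as lower. MSN5, another exporter that acts on tRNA, averaged 53.5 ± 3.65 TPM in the dChr strain and 43.7 ± 5.39 TPM in the control. It went the other way, also without overlap, and was not called (limma adjusted p = 0.154). MSN5 was called higher under median-ratio scaling and quantile normalization, with limma adjusted p = 0.0174 and 0.0194.

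The elongation factor that delivers charged tRNA to the ribosome, eEF1A, is made from TEF1 and TEF2, whose coding sequences are nearly identical, so that reads can be shared between them. TEF2 was at 15019, 13624 and 14434 TPM in the dChr libraries, against 10554, 9572 and 11340.4 TPM in the control libraries (log2 fold change 0.46, limma adjusted p = 0.0621). For TEF2 the log2 fold change was 0.05 under quantile normalization (limma adjusted p = 0.865), and the threshold was passed with a filter at a mean of 10 TPM (0.0252) and without the trend (0.0447). TEF1 was at 13347, 13699 and 12575 TPM in the dChr libraries, against 7243, 10700.4 and 4284 TPM in the control libraries, where the controls lie far apart (limma adjusted p = 0.113, and 0.0374 without control library 2). All 6 tested delivery factors had log2 fold changes of 0.00 or above, with a median of 0.19. TEF4 and TUF1 lay below 0 with rescaled open reading frames and without control library 1, and TUF1 also without dChr library 1, dChr library 2 or control library 3. Limma called 0 of the 6, and 2 were higher at an unadjusted p under 0.05, where 4.19% and 9.85% of tested transcripts were higher. TEF4, a gamma subunit of the exchange factor eEF1B, was at 629.7, 699 and 682 TPM in the dChr libraries, against 585, 711 and 669.9 TPM in the control libraries, which overlap. GRS2, a paralog of GRS1, was at 2.59, 3.91 and 2.95 TPM in the dChr libraries, against 3.13, 4.47 and 1.92 TPM in the control libraries. Genes of mitochondrial transamidation and formylation (PET112, HER2 and FMT1) had log2 fold changes of 0.01, 0.18 and 0.11. GTF1, of the same group, was below the filter with 0 TPM listed in 4 of 6 libraries.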

How the data were processed

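The deposited values are TPM that the authors made from RNA-seq of total RNA, in a single table of 6 libraries. The submitters' processing notes name cutadapt 2.6, HISAT2 2.0.5, StringTie 2.0, DESeq2, R 3.6.0 and the sacCer3 build. What each tool did, and whether reads were counted by strand, is not given in the sources used here. The table has no coordinates. Names, positions and upstream sequence came from RefSeq R64, the assembly that sacCer3 denotes, and no member overlaps another annotated gene there.

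The 5938 transcripts averaging 1 TPM or more were fitted on the log2(TPM + 1) scale by limma 3.58.1 (R 4.3.3), with an eBayes trend and strain as the only term, two-sided, with Benjamini-Hochberg adjustment over all of them and a threshold of 0.05. Ratios of enzyme pairs were tested by exact permutation (scipy 1.17.1). Alternatives were other pseudocounts (0.1 and 5), no filter or a mean of 10 TPM, 3 other scalings, no trend, a replicate block, and each library left out in turn. Intervals are 95%. The fit was first tested on simulated data with 200 changed transcripts. It recovered 25.4% of 1.5-fold, 66.2% of 2-fold and 85.5% of 4-fold changes, and 2 of its 118 calls were false. Most 1.5-fold changes were thus missed in the simulation. It tested 5880 transcripts of all levels and changed 200, while 793 were called in the data, so recovery among the members may differ.

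The members and lists were chosen with earlier results of these data known. All members are named whatever their values, with values in each library for called members and the largest changes; of the related genes, values are for called ones and the 4 of highest mean TPM. The upstream sequence of KRS1 is not reported here. Values of other genes were chosen after they were seen.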

Additional observations from a re-analysis of the deposited data

How the results depend on the processing

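KRS1 kept its direction and its call in all 15 alternatives. The cytosolic count called lower, 1, became 3 with median-ratio scaling, 2 with quantile normalization, 6 with rescaled open reading frames and 2 with a replicate block; the count called higher, 0, became 1 under each of the first 2 of these. Mitochondrial genes called higher, 0, became 2 with quantile normalization. Of the related genes, 1 was called lower with no filter on low values, and those called higher were 1 with a mean of 10 TPM, 3 under median-ratio scaling, 2 under quantile normalization and 1 without the trend. The background moved too. Of all tested transcripts, 507 rose and 638 fell of 5930 under median-ratio scaling, and 555 and 561 of 5938 under quantile normalization. With rescaled open reading frames 249 rose and 928 fell of 5621, and with a replicate block 268 and 566 of 5938. With no filter on low values 509 fell of 7158. With a mean of 10 TPM 231 rose of 2977, and without the trend 214 of 5938. The longer motif was in 3 members, against 10. The cause was not tested.

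Leaving out each library, with fewer samples in each fit, gave 113 to 262 transcripts higher and 282 to 417 lower, 0 to 1 cytosolic genes higher and 1 to 1 lower, 0 mitochondrial genes in either direction, 0 to 1 related genes higher and 0 to 1 lower. Medians ranged from -0.133 to -0.032 for cytosolic and from -0.073 to 0.107 for mitochondrial genes, the last over 12 genes. Pairs without overlap numbered 5 to 8, with 8 without dChr library 1 and without control library 3, though with fewer libraries the strains separate more easily. Calls moved by over 1.5 times in these cases: 113 higher when dChr library 1 was left out, 124 when dChr library 2 was, 158 when dChr library 3 was and 147 when control library 3 was; 282 lower when dChr library 1 was left out and 307 when dChr library 3 was. Among single genes, 28 results gained a call and 11 lost it, and no called gene changed direction.

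Libraries with the same number, as deviations from the mean of their strain, correlated at 0.0874, -0.0774 and 0.123, and some libraries had a higher correlation with another number than with their own. With the replicate block, limma called 268 transcripts higher and 566 lower, and among the members and related genes it added YHR020W and LOS1. Depth is unknown, and 10 of the 13 mitochondrial genes, with means under 10 TPM, were not tested with the stricter filter.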
